A study of Rattus norvegicus with 5 samples.

Results

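The lectin-like receptors of the natural killer (NK) gene complex were followed in mononuclear leukocytes washed out of the blood vessels of transplanted rat kidneys. Every gene whose symbol in the probe annotation starts with Klr or Ly49 was taken, which gave 18 genes on 22 probes, out of 14871 named genes on the array. All 18 lie on chromosome 4 in RefSeq's GRCr8 annotation, which lists 43 entries with such symbols in the genome, 35 of them protein-coding. The other entries, among them Klrc1 (NKG2A), Klri1 and Klra17, were not analysed here. All 18 members passed the filter on missing values, 16 with values on 5 arrays and 2 on 4.

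The allograft leukocytes came from F344 (RT1lv1) kidneys placed in LEW (RT1l) recipients, and the isograft leukocytes came from LEW kidneys placed in LEW recipients, so the recipients were LEW in both groups. All rats were male. The recipients' own kidneys were removed, donors received heparin, recipients received ampicillin and no immunosuppressive drug, and recipients were heparinized before the graft was perfused. Granulocytes and red cells were depleted on a Percoll gradient. The sources used here do not give the age of the rats, the day of collection or whether animals were pooled. Each of 5 dual-colour arrays set 1 allograft sample against 1 isograft sample, with the allograft in Cy5 on replicates 1, 3 and 5 and in Cy3 on replicates 2 and 4. Arrays are labelled as biological replicates but not tied to animals, and p-values therefore measure only the spread between these arrays, which may be partly technical. The comparison asks how the transcripts of leukocytes that gather in graft vessels during self-limiting acute rejection differ from those of leukocytes in isografts.

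Receptors of this complex are type II membrane proteins with a C-type lectin-like domain, carried by NK cells and by subsets of T cells. Inhibitory members signal through tyrosine motifs in their own tails. Activating members lack these and depend on adaptors such as DAP12 (Tyrobp) and DAP10 (Hcst). NKG2D (Klrk1) recognises stress-induced relatives of class I molecules, and CD94 (Klrd1) pairs with NKG2 chains (Klrc genes). Ly49 receptors bind class I molecules, and NKR-P1 receptors (Klrb1 genes) bind lectin-like Clec2 proteins. Ly49 gene content varies between rat strains.

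Values are log2 ratios, allograft over isograft. A fitted ratio is the limma estimate ± its SE, which weights both dye orientations equally, and a gene was called when its Benjamini-Hochberg adjusted p, taken over all 33646 genes and unnamed probes, was under 0.05. Spot intensities were not used here, so levels in either graft and signal over background are unknown. Precision is set by there being 5 arrays. That positive means higher in the allograft is likely, judging by how the sample titles order the groups, but is not stated outright. Had the dye-swapped columns not been turned already, the graft difference would be the dye term, and by that term 0 of the 14329 named genes passed. Gene names rest on an order of the table's rows that was recovered from the data. In bulk RNA, more or fewer cells of a type and more or less RNA per cell cannot be told apart.

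Of the 18 members, 1 was called higher in allograft leukocytes, Klrk1, and 0 were called lower by limma. Over all named genes tested, 1.07% were called higher and 0.712% lower, and over all genes and unnamed probes 1.35% were called in either direction. At an unadjusted p under 0.05, 4 members were higher (background 7.63% of named genes) and 1 was lower (background 7.54%). The median ratio of the members was 0.19, against -0.01 for all 14329 named genes tested. By sign, 13 of the fitted ratios were positive and 5 negative, against 7039 positive and 7289 negative over all named genes tested. The ratios of 6 members were above 0 on every array that measured them, against a background of 10.6% of named genes, and those of 2 members were below 0 on every such array, against 10.5%. The fitted ratios farthest from 0 belonged to 4 genes that follow each other on chromosome 4, Klrd1, Klrk1, Klrc3 and Klrc2.

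**Figure D1:**
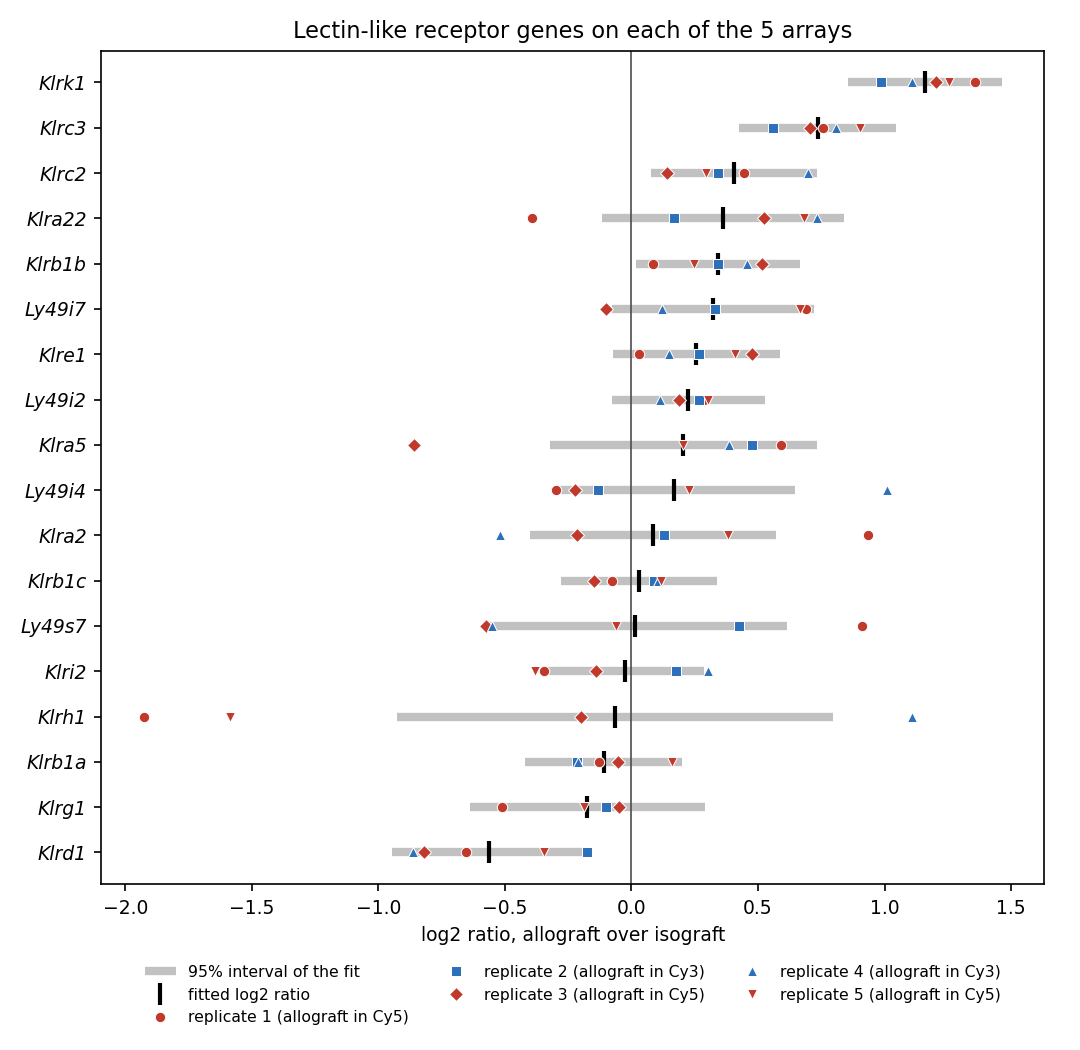
Log2 ratio (allograft over isograft, x axis) of the 18 receptor genes (y axis, ordered by fitted ratio) on each array, with marker shape for the replicate and colour for the allograft's dye; black ticks are fitted ratios and grey bars their 95% intervals. Klrk1 lay between 0.99 and 1.36 on all 5 arrays, Klrd1 lay below 0 on all 5, and Klrh1 had the widest spread.

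The sequences upstream of the 3 neighbours with the highest ratios show what their start sites hold. These RefSeq promoters (GRCr8, minus strand of chromosome 4, 250 bases before to 50 after the annotated start) are chr4:164778333-164778632 for Klrk1, chr4:164798709-164799008 for Klrc3 and chr4:164819816-164820115 for Klrc2. Capitals mark matches, on either strand, to 6 motifs: TGTGGT (Runx), GGAAGT (Ets), TGANTCA (AP-1), GGTGTGA (a T-box half-site), TTCNNNGAA (GAS, the interferon-gamma-activated site) and the core of the interferon-stimulated response element (GAAA, any 2 bases, GAAA). In the printed promoters no matches overlap.
Klrk1: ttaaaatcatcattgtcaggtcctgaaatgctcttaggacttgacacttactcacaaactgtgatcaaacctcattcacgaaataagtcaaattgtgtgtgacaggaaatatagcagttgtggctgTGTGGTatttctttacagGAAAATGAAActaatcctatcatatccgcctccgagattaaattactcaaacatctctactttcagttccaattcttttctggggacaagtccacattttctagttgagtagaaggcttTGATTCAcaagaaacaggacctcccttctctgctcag
Klrc3: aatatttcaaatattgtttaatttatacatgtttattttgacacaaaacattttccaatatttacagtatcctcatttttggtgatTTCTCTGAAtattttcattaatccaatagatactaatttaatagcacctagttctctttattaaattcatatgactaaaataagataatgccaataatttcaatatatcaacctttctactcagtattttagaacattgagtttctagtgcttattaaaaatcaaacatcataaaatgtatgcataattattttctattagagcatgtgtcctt
Klrc2: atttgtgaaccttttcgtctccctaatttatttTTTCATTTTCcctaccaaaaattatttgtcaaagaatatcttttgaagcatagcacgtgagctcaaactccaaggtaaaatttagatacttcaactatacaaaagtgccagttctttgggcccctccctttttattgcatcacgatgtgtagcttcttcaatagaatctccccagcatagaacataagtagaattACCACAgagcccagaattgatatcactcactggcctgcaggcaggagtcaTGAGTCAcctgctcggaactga

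The Klrk1 and Klrc2 promoters each held a Runx, an AP-1 and an interferon-stimulated response element match. The Klrc3 promoter held none of these and had 1 GAS match. Among 27457 promoters of the same length, 16.9% held the Runx letters, 7.33% the AP-1 letters, 3.77% the interferon-stimulated core and 8.68% the GAS letters. Of the 16 members with a promoter in the table, 5 held the Runx letters (31.2%), 3 the AP-1 letters, 3 the interferon-stimulated core (Klra5 besides Klrc2 and Klrk1) and 5 the GAS letters. The T-box letters stood in 0 of the 16, against 3.81% of all promoters, and the Ets letters in 5, against 22.8%. The sequence is that of the BN strain, not of LEW or F344, and a match is no evidence of a bound factor.

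Klrk1 encodes NKG2D, an activating receptor of NK cells and CD8 T cells. Its log2 ratio was 1.36, 0.99, 1.20, 1.11 and 1.26 on replicates 1 to 5. All arrays lay close together (SD 0.14), and replicate 2 was the lowest. The fitted ratio was 1.16 ± 0.13 (2.23-fold, 95% interval 0.86 to 1.46, limma adjusted p = 0.0137, n = 5 arrays). Arrays with the allograft in Cy5 averaged 1.27, and those with the allograft in Cy3 averaged 1.05. Klrk1 was measured by a single probe, and 81 of the 14329 named genes had a higher fitted ratio. Its ratio moved little when an array was left out, from 1.13 to 1.19, but no such fit of 4 arrays called it. The limma adjusted p was 0.0830, 0.0578, 0.0636, 0.102 and 0.0814 without replicate 1, 2, 3, 4 and 5.

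Klrc3 and Klrc2 encode NKG2 chains that pair with CD94; RefSeq lists rNKG2C and NKG2E as synonyms of Klrc2. The Klrc3 log2 ratio, averaged over its 2 probes, was 0.76, 0.56, 0.70, 0.81 and 0.90 on replicates 1 to 5. All arrays were above 0 and none reached 1. The fitted ratio was 0.74 ± 0.13 (1.66-fold, 95% interval 0.42 to 1.05), just short of the threshold (limma adjusted p = 0.0549). Both probes of Klrc3 target the same transcript record, and fitted singly they gave 0.79 ± 0.14 and 0.68 ± 0.14. The gene was called in 2 of 14 alternatives, with quantile normalization (limma adjusted p = 0.0396) and without the dye term (limma adjusted p = 0.0359). It was not called with arrays scaled to a common spread (limma adjusted p = 0.0655) or with any array left out. Klrc2 had log2 ratios of 0.44, 0.34, 0.14, 0.70 and 0.29 on replicates 1 to 5, again above 0 on every array. Its fitted ratio was 0.41 ± 0.14 (95% interval 0.08 to 0.73, limma adjusted p = 0.255), which did not pass.

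Klrd1 encodes CD94, the common partner of the NKG2 chains. Its log2 ratio was -0.65, -0.17, -0.82, -0.86 and -0.34 on replicates 1 to 5, below 0 on each. The fitted ratio was -0.56 ± 0.16 (95% interval -0.95 to -0.18, limma adjusted p = 0.180), so it did not pass. Without replicate 4 it was -0.39 and without replicate 2 it was -0.74. Within each array the ratio of Klrd1 was the lowest of the 4 neighbours. The ratio of Klrc3 exceeded that of Klrd1 by 1.32 ± 0.36 (SD, n = 5 arrays), and the ratio of Klrk1 exceeded it by 1.75 ± 0.37. These pairs were picked after their values were seen, so the differences are a description.

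**Figure D2:**
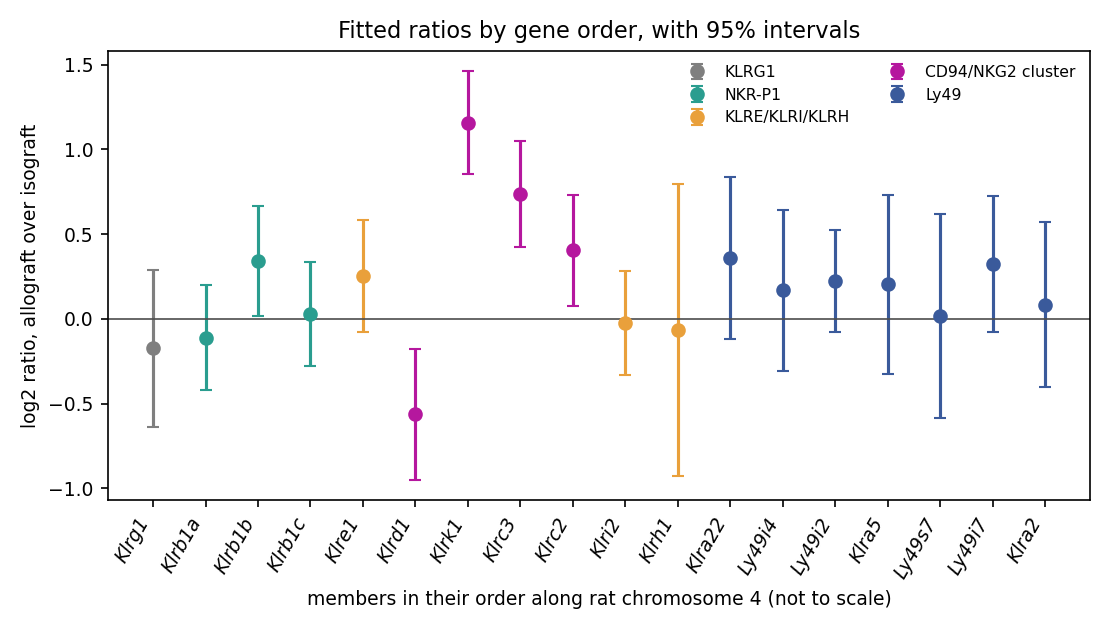
Fitted log2 ratio (allograft over isograft, y axis) with its 95% interval for the 18 receptor genes in their order along chromosome 4 (x axis, ordinal, other family genes left out), coloured by subfamily. The lowest and the highest fitted ratios, -0.56 for Klrd1 and 1.16 for Klrk1, belonged to adjacent genes, and the 7 Ly49 genes stood between 0.01 and 0.36.

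Klre1, the neighbour on the other side of Klrd1, encodes a chain that pairs in rats with KLRI1 or KLRI2. It had log2 ratios of 0.03, 0.27, 0.48, 0.15 and 0.41 on replicates 1 to 5, all above 0. The fitted ratio was 0.26 ± 0.14 (95% interval -0.07 to 0.59, adjusted p = 0.504). Klri2, which encodes its activating partner, had log2 ratios of -0.35, 0.18, -0.14, 0.30 and -0.38 and a fitted ratio of -0.02 ± 0.13 (adjusted p = 0.951). Its 3 negative arrays were those with the allograft in Cy5, and its 2 positive arrays those with the allograft in Cy3. Klrh1, a further receptor of this group, showed the same split with a larger spread: -1.92, -0.20 and -1.59 on replicates 1, 3 and 5 and 1.11 on replicate 4, with no value on replicate 2. Its fitted ratio was -0.07 ± 0.35, with the widest interval of the members (95% interval -0.93 to 0.80, n = 4 arrays). The dye term itself was not called for any of the 18 members (Klrh1 adjusted p = 0.390).

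None of the 3 NKR-P1 genes was called by limma, and 1 of them, Klrb1b, passed at an unadjusted p under 0.05. Klrb1a encodes NKR-P1A, an activating receptor and the usual surface marker of rat NK cells. Its log2 ratio was -0.13, -0.21, -0.05, -0.21 and 0.16 on replicates 1 to 5, and its fitted ratio was -0.11 ± 0.13 (95% interval -0.42 to 0.20, adjusted p = 0.764). It was below 0 on 4 of 5 arrays, by little. Klrb1b encodes the inhibitory NKR-P1B. It had log2 ratios of 0.08, 0.34, 0.52, 0.46 and 0.25, above 0 on all 5 arrays, and a fitted ratio of 0.34 ± 0.14 (95% interval 0.02 to 0.67, adjusted p = 0.346). Klrb1c, which RefSeq also lists as NKR-P1F, had 3 probes, with fitted ratios of -0.13, 0.15 and 0.01, and averaged 0.03 ± 0.13 (95% interval -0.28 to 0.34).

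All 7 Ly49 genes had positive fitted ratios, and none was called by limma or passed at an unadjusted p under 0.05. Their median was 0.20, with adjusted p-values between 0.488 and 0.985. The Ly49 median on single arrays was 0.59, 0.27, -0.21, 0.12 and 0.30 for replicates 1 to 5, so replicate 3 went the other way. Ly49i2, an inhibitory receptor, was the steadiest member of all, with log2 ratios of 0.29, 0.27, 0.19, 0.11 and 0.30 (SD 0.08) and a fitted ratio of 0.22 ± 0.13 (95% interval -0.08 to 0.53). The other 6 had arrays on both sides of 0. Klra22, which RefSeq also lists as Ly49s2, an activating form by its name, had log2 ratios of -0.39, 0.17, 0.52, 0.73 and 0.68. Its 2 probes, made to different records of the gene, followed each other, at -0.33 and -0.45 on replicate 1 and at 0.72 and 0.74 on replicate 4.

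Ly49i7, an inhibitory form by its name, had log2 ratios of 0.69, 0.33, -0.10, 0.12 and 0.66 and a fitted ratio of 0.32 ± 0.17. Ly49i4 stood at -0.30, -0.13, -0.22, 1.01 and 0.23, so that its positive fitted ratio (0.17 ± 0.20) came mainly from replicate 4, and without that array it was -0.12. Klra5 stood at 0.59, 0.48, -0.86, 0.39 and 0.20, with replicate 3 far below the other arrays. Ly49s7, an activating form by its name, overlaps Klra5 in the RefSeq annotation, and its log2 ratios were 0.91, 0.42, -0.57, -0.55 and -0.06. Klra2 stood at 0.93, 0.13, -0.21, -0.52 and 0.38. Both of these had fitted ratios near 0, 0.01 ± 0.25 and 0.08 ± 0.20. The sign of Ly49s7 changed in 4 of 14 alternative settings and that of Klra2 in 2. Ly49 genes resemble each other and probe sequences were not used here, so single Ly49 genes are uncertain.

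Klrg1 encodes an inhibitory receptor for cadherins carried by mature NK cells and effector T cells. Its log2 ratio was -0.51, -0.10, -0.05 and -0.19 on replicates 1, 2, 3 and 5, with no value on replicate 4. All 4 values were below 0, and the fitted ratio was -0.17 ± 0.19 (95% interval -0.64 to 0.29, adjusted p = 0.743). Over all members, 13 of the 18 intervals covered 0, and 16 stayed within a 2-fold difference either way. The spread between arrays was under 0.25 (SD) for 9 members and over 0.4 for 6, among them Klrh1 and 5 Ly49 genes. On single arrays the median of the members was 0.06, 0.27, -0.08, 0.30 and 0.24 for replicates 1 to 5, against -0.02 to 0.02 for all named genes.

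Genes that work with these receptors were described from lists, each with its count of calls by limma beside the same background of 1.07% higher and 0.712% lower. Counts at an unadjusted p under 0.05, here and for the cell markers below, stand beside 7.63% higher and 7.54% lower of named genes. Of 19 cytotoxic effector genes tested, 8 were called higher and 0 lower (12 and 0 at an unadjusted p under 0.05), and the median was 0.60. They were Xcl1 (2.67 ± 0.20), the cytokine Ifng (1.76 ± 0.16), Cst7 (1.46 ± 0.16), the chemokines Ccl4 (1.44 ± 0.17) and Ccl3 (1.01 ± 0.17), the granzyme Gzmc (1.29 ± 0.16), the death ligand Faslg (0.92 ± 0.15) and the granule membrane protein Nkg7 (0.84 ± 0.14). Perforin (Prf1) stood at 0.30 ± 0.15 (adjusted p = 0.459) and granzyme A (Gzma) at 0.60 ± 0.21 (adjusted p = 0.277). The other granzymes tested were not called either: Gzmb (0.43 ± 0.19), Gzmk (0.01 ± 0.14), Gzmf (-0.07 ± 0.20) and Gzmm (-0.18 ± 0.15). All 8 called genes were above 0 on 5 of 5 arrays, as Klrk1 was. With an array left out, Xcl1 stayed called in all 5 fits and Ifng in 4 (adjusted p = 0.0506 without replicate 4). Ccl4, Cst7 and Gzmc stayed called only without replicate 2, and Ccl3, Faslg and Nkg7 in none of these fits. With all 5 arrays scaled to a common spread, Ifng, Nkg7, Ccl4, Faslg and Cst7 lost their calls (limma adjusted p = 0.0951, 0.0942, 0.0793, 0.0751 and 0.0591). Each of Xcl1, Ifng, Ccl3 and Ccl4 can be made by T cells as well as NK cells.

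Ligands of the receptors were next. Of 15 tested, 3 were called higher and 0 lower (11 and 0 at an unadjusted p under 0.05), with a median of 0.74. These were RT1-M3-1 (1.00 ± 0.13, adjusted p = 0.0216), RT1-S3 (0.84 ± 0.13, adjusted p = 0.0397) and RT1-CE5 (0.74 ± 0.13, adjusted p = 0.0496), all class I genes. The strains differ at class I and RT1 probes can cross-hybridise, so single RT1 genes are uncertain. All 11 genes that passed at an unadjusted p under 0.05 were RT1 genes. That count and the list's median may therefore rest on probes that share targets. None of the 3 called genes stayed called when any array was left out (adjusted p from 0.0796 to 0.244). Raet1l, a ligand of NKG2D, had log2 ratios of -0.01, -0.22, 0.35, 0.86 and 0.88 on replicates 1 to 5, and its fitted ratio of 0.36 ± 0.21 did not pass (adjusted p = 0.536). The cadherins tested, Cdh1 (0.35 ± 0.15) and Cdh2 (-0.07 ± 0.15), did not pass either.

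None of 20 adaptor and signalling genes was called (2 higher and 0 lower at an unadjusted p under 0.05), and their median was 0.10. Tyrobp, the DAP12 adaptor of the activating receptors, had log2 ratios of -0.18, 0.09, 0.01, 0.06 and -0.18, and a fitted ratio of -0.02 ± 0.13 (adjusted p = 0.953). Fcer1g, the Fc receptor gamma chain, stood at 0.22 ± 0.17 (adjusted p = 0.640). Hcst, the DAP10 adaptor, was not analysed here. Of 9 NK receptors outside the lectin-like family, 0 were called (4 higher and 1 lower at an unadjusted p under 0.05). Their fitted ratios went both ways, from -0.61 to 0.84, with a median of 0.16. Ncr1, which encodes the NK receptor NKp46, was below 0 on all 5 arrays, at -0.63, -0.17, -0.27, -1.23 and -0.66 (fitted -0.61 ± 0.19, adjusted p = 0.211), and Ncr3 stood at -0.03 ± 0.16 (adjusted p = 0.949).

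Among 7 other lectin-like genes of the complex, 1 was called lower, the platelet receptor gene Clec1b (-3.12 ± 0.22, adjusted p = 0.00431), and 0 higher (1 and 1 at an unadjusted p under 0.05). Clec1b is also in the platelet list below. The activation marker Cd69 stood at -0.27 ± 0.15 (adjusted p = 0.505) and Clec2d, of the family of NKR-P1 ligands, at -0.03 ± 0.15 (adjusted p = 0.949). No transcription factor of NK cells was called among 12 (1 higher and 2 lower at an unadjusted p under 0.05), with Tbx21 at -0.15 ± 0.21 (4 arrays) and Nfil3 at 0.22 ± 0.16. No cytokine receptor gene was called among 8 (2 higher and 1 lower at an unadjusted p under 0.05). Il2rb, a receptor chain for interleukins 2 and 15, stood at 0.35 ± 0.14 (adjusted p = 0.347) and Il2rg at 0.19 ± 0.19 (4 arrays, adjusted p = 0.723).

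**Figure D3:**
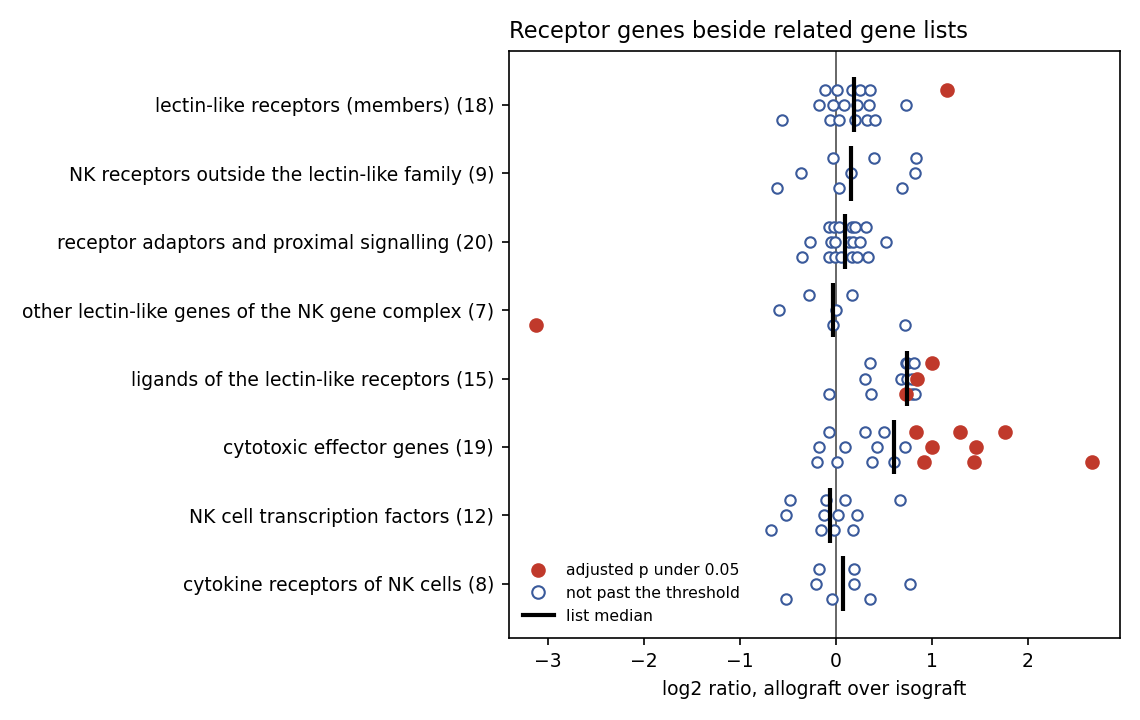
Fitted log2 ratio (allograft over isograft, x axis) of each tested gene of the 18 receptor genes and of 7 lists of related genes (y axis, number tested in brackets); filled red points had a limma adjusted p under 0.05 and black lines are medians. Calls lay mostly among the cytotoxic effector genes (8 of 19) and the ligands (3 of 15), beside Klrk1 among the receptors.

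Markers of other cells moved beside these genes, and their part in the receptor ratios was not tested. Of 10 T cell markers tested, 1 was called higher, Cd3e (1.10 ± 0.15, limma adjusted p = 0.0229), and 9 were not called. Cd3e was called in no fit of 4 arrays (limma adjusted p from 0.0747 to 0.127), and Cd3d stood at 0.42 ± 0.14. The T cell markers went both ways, with fitted ratios from -0.49 to 1.10 around a list median of 0.11. Over the arrays the list's median ran from -0.18 to 0.43. Of 8 monocyte and macrophage markers 2 were called higher (Cd14, 1.42 ± 0.17, and Aif1, 1.02 ± 0.13), with array medians from 0.14 to 0.77 and Cd68 at 0.26 ± 0.13; of the fits of 4 arrays, Cd14 was called only in that without replicate 2, and Aif1 in none (adjusted p from 0.0796 to 0.130). With all 5 arrays scaled to a common spread, Cd3e, Cd14 and Aif1 lost their calls (limma adjusted p = 0.0881, 0.0779 and 0.0511). Lower calls were made for 5 of 6 platelet markers (Pf4 -3.12 ± 0.19; Ppbp at -0.38 ± 0.22 did not pass) and for 5 of 6 erythroid markers (Hbb -2.26 ± 0.24 and Hbb-b1 -3.04 ± 0.29). Pf4, Clec1b and Hbb-b1 stayed called with any array left out, while Hbb lost its call without replicate 1, 4 or 5 (adjusted p = 0.0665, 0.0813 and 0.0585). The platelet and erythroid array medians ran from -3.26 to -2.05 and from -2.02 to -1.28. None of 4 B cell, 7 granulocyte, 7 endothelial or 6 kidney markers was called by limma; at an unadjusted p under 0.05, 3 B cell markers were lower, 1 granulocyte marker was higher and 3 lower, 1 endothelial marker was higher and 1 lower, and 0 kidney markers passed. The B cell markers Ms4a1 and Cd79b stood at -0.85 ± 0.19 and -1.11 ± 0.20. Ms4a1 averaged -1.74 on arrays with the allograft in Cy5 and 0.03 on those with it in Cy3, while Cd79b was below 0 on all 5 arrays. Granulocyte markers went both ways, with S100a8 at -0.55 ± 0.18, S100a9 at -0.93 ± 0.33 and Camp at 0.66 ± 0.20, around a list median of -0.26. Endothelial markers did too, with Pecam1 at 0.35 ± 0.13, Cdh5 at -0.05 ± 0.15 and Kdr at -0.36 ± 0.13, around a list median of 0.01. The kidney genes Umod and Slc12a3 stood at -0.42 ± 0.19 (4 arrays) and -0.28 ± 0.17. Since each value is a ratio, whether a marker was present at all in either graft cannot be read from these files.

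The call of Klrk1 depended on the number of arrays more than on the other settings tried. Klrk1 was called in all 9 alternative settings that kept the 5 arrays, with adjusted p-values from 0.00916 without the dye term to 0.0472 with arrays scaled to a common spread. Scaling also changed the balance of calls over all genes and probes, to 98 higher and 215 lower, against 256 higher and 199 lower as reported. Named genes called higher fell from 153 to 56 with scaling, against 55 without replicate 2.

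**Figure D4:**
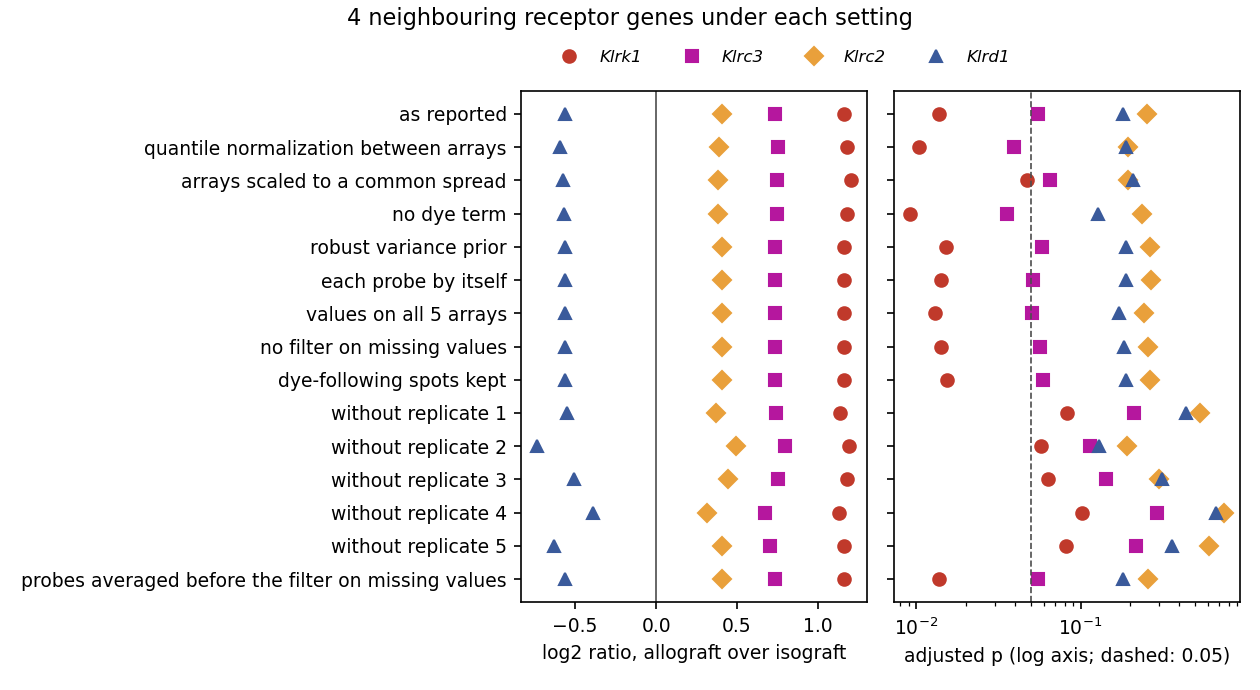
Fitted log2 ratio (left, allograft over isograft) and limma adjusted p (right, log axis, dashed line at 0.05) of Klrk1, Klrc3, Klrc2 and Klrd1 as reported and under 14 other settings (y axis). The ratios kept their sign and order in every setting, while no gene of the 4 had an adjusted p under 0.05 once any array was left out.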

How the data were processed

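The authors deposited 1 table of log ratios per spot, read here as log2 (base 2 is assumed). The sources used here do not give the scanner, background correction, normalization or log base. Array medians lay between -0.01 and 0.03, and 41033 to 43286 of 44290 spots had values. With row numbers read as probe numbers, probes of 1 accession did not correlate (r = 0.00353). Under the recovered order (103 rows by 430 columns) 4514 such pairs correlated at 0.449, against at most 0.0236 in 15 other orders of that layout. Over named probes, arrays of the same dye orientation correlated at 0.23 to 0.63 and arrays of opposite orientation at -0.07 to 0.43, so arrays resembled each other more within an orientation. Same-accession pairs correlated at 0.449 for mean ratios as deposited and at 0.119 with the dye-swapped columns turned, so no column was turned again. The 407 spots with a mean dye-following ratio above 3, none on a named probe, were left out. Probes needed values on 4 of 5 arrays and both dye orientations. Probes of a gene were averaged after this filter, with symbols updated through Entrez numbers (all 18 members matched). limma 3.58.1 in R 4.3.3 fitted a graft and a dye term across 33646 rows, and the fit was tested on simulated data.

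Members and lists were chosen with earlier results of these data known. Named genes are all members, all called genes of each list of related genes, and otherwise the first 2 measured genes of each list. Aif1, Camp, Kdr, Gzmb, Gzmf, Gzmk, Gzmm, Cdh1, Cdh2 and the genes near the threshold were named after their values were seen. A planned split of members by protein motifs was not made, as protein sequences were not used here. Alternatives covered normalization, scaling, the dye term, the variance prior, probe averaging, filters, dye-following spots and each array left out. Averaging before the filter was run first and gave 446 calls; filtering first, reported here (455 calls), was adopted after both counts had been seen.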

Additional observations from a re-analysis of the deposited data

Results flagged for a closer look

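In 6 of 80 genes examined, 1 of the 5 arrays stood apart from the rest by Dixon's criterion; chance gives about 1 in 20. Klra5 was at -0.86 on replicate 3, with the nearest other array at 0.20. Fcer1g was at -0.42 on replicate 3, with the nearest at 0.22. Clec2d was at -0.49 on replicate 4 and Nfil3 at 0.87 on replicate 4, with the nearest other arrays at 0.00 and 0.12. The class I genes RT1-CE3 and RT1-CE4 were at 1.22 and 1.24 on replicate 1, with the nearest other arrays at 0.68 and 0.75, and their probes may share targets.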

How the results depend on the processing

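The number of genes and probes called was 455 as reported, 749 with quantile normalization, and 64 to 149 when 1 array was left out. Members called higher were 2 with quantile normalization and 2 without the dye term (Klrc3 besides Klrk1), and 0 with any array left out, where 2 to 6 members passed at an unadjusted p under 0.05. In those fits the spread rests on fewer arrays. The share of all named genes under that unadjusted p was not taken for them, so the member counts have no background. Of the related genes, 12 were called as reported, 20 with quantile normalization, 6 with arrays scaled to a common spread and 2 to 6 with an array left out. No member was called lower in any setting, and the members' median stayed between 0.09 and 0.25. Averaging probes before the filter on missing values, an alternative added after seeing the data and run before the reported order was adopted, gave 446 calls, 1 member called higher (Klrk1, adjusted p = 0.0137) and 11 related genes. Of the 8 called cytotoxic genes, Xcl1 kept its call in all 14 alternatives, and the others lost it in 2 (Ifng) to 7 (Ccl3). RT1-CE5 lost it in 10. No called receptor, related gene or marker changed sign in the alternatives that measured it. Each ratio is already the difference between the allograft and the isograft sample on 1 array. The reported fit is paired in that sense only, as arrays are not tied to animals, and no further block could be added.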

Other observations

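Beside the called genes, 10 related genes had a limma adjusted p between 0.05 and 0.1, a range chosen after the values were seen. Of these, 7 were class I genes of the ligand list, each above 0 on all 5 arrays: RT1-A2 (0.79 ± 0.14, adjusted p = 0.0506), RT1-CE16 (adjusted p = 0.0514), RT1-CE2 (adjusted p = 0.0536), RT1-CE12 (adjusted p = 0.0555), RT1-CE1 (adjusted p = 0.0559), RT1-CE4 (adjusted p = 0.0682) and RT1-CE3 (0.74 ± 0.15, adjusted p = 0.0742). The others were Srgn, the core protein of granule proteoglycans (0.73 ± 0.13, adjusted p = 0.0577), the immunoglobulin-like receptor Lilrb4 (0.84 ± 0.16, adjusted p = 0.0651) and Id2, a regulator of innate lymphocytes, which was below 0 on all 5 arrays (-0.67 ± 0.14, adjusted p = 0.0739). Among the cell markers, 4 lay in the same range: the myeloid integrin Itgam (0.66 ± 0.14, adjusted p = 0.0836) and the B cell genes Fcrla (-0.85 ± 0.15, adjusted p = 0.0514), Ms4a1 (-0.85 ± 0.19, adjusted p = 0.0956) and Cd79b (-1.11 ± 0.20, adjusted p = 0.0559).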
